A study of Mus musculus with 6 samples.

Results

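Reactive astrocyte genes were followed in single nuclei of the mouse cortex after a focal injury. The set was a fixed list of 10 genes that mark the glial scar or serve the astrocyte at rest (Gfap, Vim, Cd44, Osmr, Stat3, Serpina3n, A2m, Lcn2, Aqp4 and Slc1a2), out of 32285 features counted. All 10 had unique molecular identifiers (UMIs, counted RNA molecules) in astrocytes of all 6 libraries. Astrocytes were named by other markers, Slc1a3 (a glutamate transporter), Rfx4 (a transcription factor) and Ntsr2 (a neurotensin receptor), and numbered 2475 of 61917 nuclei.

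Photothrombotic (PT) injury, in which light and an injected dye close the vessels of the cortex, was given to all mice, and PT lesions of the brain were dissected either 7 or 21 days after it (days post injury, dpi). At each time there were 3 groups: wild-type mice with no treatment listed (Ctrl), wild-type mice given ADWA11, an antibody that blocks the TGFβ-activating integrin αvβ8, from the day of injury, and Col1a2(creER); Tgfbr2(flox) mice with no treatment listed (Tgfbr2-cKO), in which tamoxifen-induced Cre under the Col1a2 promoter removes the type II TGFβ receptor from fibroblasts and not by design from astrocytes. Each group was 1 library that combined tissue of 1 male and 1 female adult mouse, so every difference below is between 2 libraries and is given without a test. The study's methods name several kinds of control for its knockout strains, given tamoxifen where relevant, but whether the Ctrl mice of these libraries had received tamoxifen or an isotype antibody was not given.

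Astrocytes are the glial cells that take up glutamate, move water and potassium and line the vessels of the brain. After injury they thicken their intermediate filament skeleton, made of Gfap and Vim, and close around the lesion as a glial scar. Cytokines of the interleukin-6 family drive much of this change: they bind receptors such as Osmr that share the gp130 chain, and the receptors activate Stat3, a transcription factor. Reactive astrocytes also secrete acute-phase proteins, among them Serpina3n, A2m and Lcn2.

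Gfap and Lcn2 are shown with their promoters because they were the steadiest member in Ctrl and the member that differed most between days. RefSeq windows of 300 bases on GRCm38.p6, from 250 bases before to 50 after the annotated start, were found for 8 of the 10 members. Capitals mark TTCNNNGAA, the core bound by STAT factors, which reads the same on both strands. The Gfap window is chr11:102897151-102897450 on the minus strand and the Lcn2 window is chr2:32387690-32387989 on the minus strand.
Gfap: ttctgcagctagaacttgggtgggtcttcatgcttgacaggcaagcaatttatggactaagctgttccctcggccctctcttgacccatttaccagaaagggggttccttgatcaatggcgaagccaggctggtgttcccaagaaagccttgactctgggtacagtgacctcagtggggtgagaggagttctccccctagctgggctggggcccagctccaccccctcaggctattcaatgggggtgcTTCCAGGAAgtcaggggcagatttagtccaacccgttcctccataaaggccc
Lcn2: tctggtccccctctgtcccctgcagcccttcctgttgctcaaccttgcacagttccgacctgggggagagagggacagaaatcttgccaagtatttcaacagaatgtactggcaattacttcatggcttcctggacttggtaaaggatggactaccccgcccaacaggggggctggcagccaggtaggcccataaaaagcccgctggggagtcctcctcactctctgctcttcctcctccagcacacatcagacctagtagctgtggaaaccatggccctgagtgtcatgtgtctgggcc
The Gfap window held 1 such match, beginning at −2 from the start, and the Lcn2 window held none. The core stood in 1 of the 8 member windows and in 8.3% of all 32851 windows of this length. The AP-1 core TGANTCA, also the same on both strands and not overlapping the STAT match, stood in 1 of the 8, that of Osmr (chr15:6874264-6874563, minus strand, beginning at 4 after the start), and in 7.81% of all windows.

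The libraries held 67360 barcodes, with median depths of 4601.5 to 8222.5 UMIs, and any pair of them shared 21 to 61 barcodes, at most 0.513% of the smaller library. The astrocytes of 7 dpi numbered 134 in Ctrl, 213 with ADWA11 and 326 in Tgfbr2-cKO, and those of 21 dpi 796, 318 and 688, with 984436 to 6157775 UMIs per library. All 11 astrocyte markers were detected in the astrocytes of all 6 libraries. Slc1a3 stood at 1025, 795 and 2736 CPM at 7 dpi (counts-per-million, the UMIs of a gene scaled to all non-mitochondrial UMIs of the astrocytes of a library) and at 1747, 1154 and 2913 CPM at 21 dpi. The Tgfbr2-cKO library at 7 dpi stood apart in makeup, with 57.2% of its nuclei in neurons against 1.64% in Ctrl and 0.256% with ADWA11; at 21 dpi neurons were 14.6%, 1.44% and 0.612%. Markers of other cells were also found in the astrocyte class. The 8 fibroblast markers, all detected in every library, summed to 486, 314 and 132 CPM at 7 dpi and to 936, 721 and 144 CPM at 21 dpi (Ctrl, ADWA11, Tgfbr2-cKO). The 10 myeloid markers, all detected, summed to between 150.3 and 276 CPM. Of 8 neuron markers, 6 were detected in Ctrl and with ADWA11 at 7 dpi, where Slc17a7 and Nrgn were at 0, and 8 in Tgfbr2-cKO, with sums of 70.1, 95.5 and 322 CPM. The list for oligodendrocyte precursors summed to 1884 to 4203 CPM, of which Lhfpl3, Sox6 and Xylt1 made up most, while Olig1 was at 0 to 7.89 CPM. Sox10, Lhfpl3 and Sox6 of this list were raised at least 2-fold in the astrocyte cluster, before sub-clusters were left out, over all other nuclei. Tgfbr2 itself stood at 331, 255 and 250.2 CPM in fibroblasts at 7 dpi and at 238, 202 and 195 CPM at 21 dpi, but where in the gene these tags lie was not examined, so the levels do not check the deletion.

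Where the members were found was set by class. Gfap had 64.2% of its UMIs in astrocytes over all libraries, Aqp4 72.5% and A2m 75.0%. None of these 3 reached the astrocyte level in any of 60 comparisons of another class within the same library. The highest was Gfap in oligodendrocyte precursors of Ctrl at 7 dpi, at 23.5% of the astrocyte level, and the medians over the 60 were 1.93% for Gfap, 1.02% for Aqp4 and 0.884% for A2m. Slc1a2 and Serpina3n stayed below astrocytes in all 60 as well, but came closer. Neurons reached 48.6% of the astrocyte level for Slc1a2 (Ctrl, 7 dpi), and for Serpina3n oligodendrocytes reached 79.0% (Tgfbr2-cKO, 7 dpi) and their precursors 76.0% (Ctrl, 7 dpi). In those precursors Serpina3n at 7 dpi stood at 88.1 CPM in Ctrl, 6.55 with ADWA11 and 22.8 in Tgfbr2-cKO, while Gfap stood at 171, 16.5 and 21.4 CPM. Nuclei with at least 2000 UMIs were thinned to that depth. This left out 77 of 518 Ctrl precursors of that day, 48 of 1027 with ADWA11 and 57 of 495 in Tgfbr2-cKO. Of the rest, 18.6% in Ctrl had a Gfap UMI (29.2% of all Ctrl precursors unthinned), against 2.45% with ADWA11 and 2.51% in Tgfbr2-cKO.

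The signalling and cytoskeletal members were shared with other cells. Vim had 11.4% of its UMIs in astrocytes and 37.1% in myeloid nuclei, and another class reached the astrocyte level in 13 of the 60 comparisons. Cd44 had 61.6% of its UMIs in myeloid nuclei and met or passed the astrocyte level in 11. Stat3 had 38.1% in fibroblasts and 31.1% in myeloid nuclei, with 7 of the 60 at or above astrocytes. Osmr had 71.1% in fibroblasts and 11.7% in astrocytes, with 14 of the 60 at or above. Shares of UMIs also follow how many nuclei a class had, and levels in CPM do not.

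**Figure D1:**
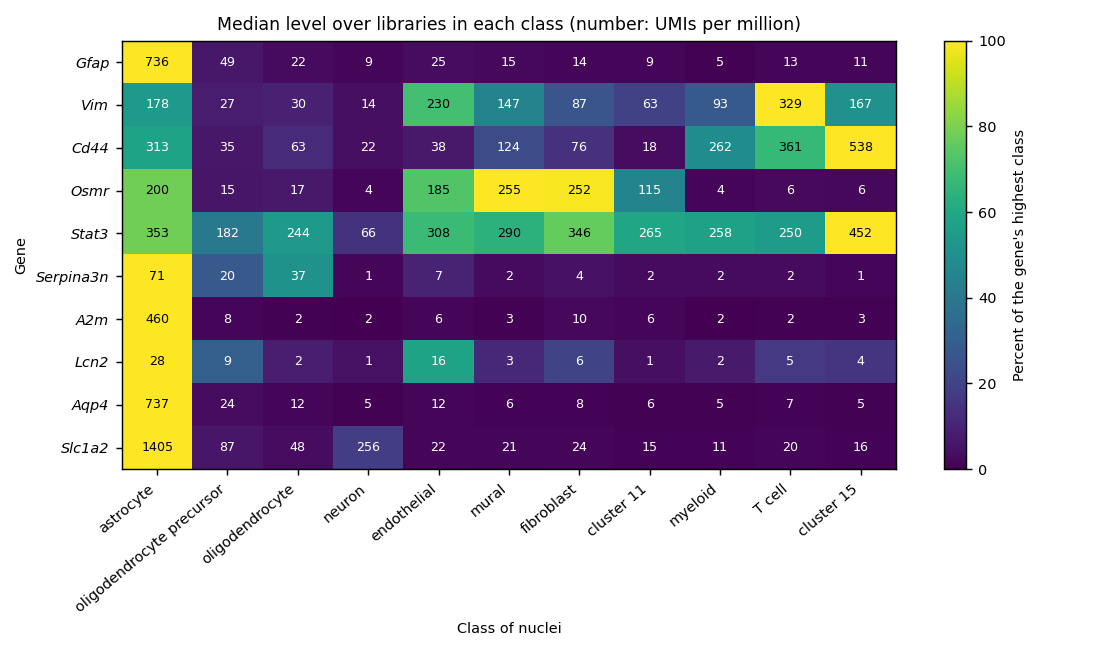
Median level over the 6 libraries of each member (rows) in each class of nuclei (columns), in CPM, with the colour giving the percent of that gene's highest class. Gfap, Aqp4, A2m and Slc1a2 are brightest in astrocytes, while Osmr is brighter in fibroblasts and mural nuclei, at medians of 252 and 255 CPM against 199.6 in astrocytes.

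Gfap, the main filament protein of astrocytes, hardly moved with time in Ctrl. At 7 dpi it stood at 728 CPM in Ctrl, 703 with ADWA11 and 806 in Tgfbr2-cKO, and at 21 dpi these values were 724, 744 and 1029 CPM. The Tgfbr2-cKO library of 21 dpi was the highest and the other 5 lay between 703 and 806. Vim, the filament protein that reactive astrocytes add, stood at 145, 145 and 109 CPM at 7 dpi and at 260.2, 210 and 225 CPM at 21 dpi in the same order. All 3 libraries of 21 dpi were above all 3 of 7 dpi.

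Cd44, the hyaluronan receptor of reactive astrocytes, was lowest in both Tgfbr2-cKO libraries. It stood at 343, 282 and 169 CPM at 7 dpi and at 405, 370 and 256 CPM at 21 dpi. Osmr, the receptor chain for oncostatin M, stood at 200.1, 67.5 and 105 CPM at 7 dpi and at 267, 199 and 333 CPM at 21 dpi. Ctrl was the highest library of 7 dpi and Tgfbr2-cKO the highest of 21 dpi. Stat3, which carries the signal of that receptor to the nucleus, stood at 485, 341 and 291 CPM at 7 dpi and at 366, 320.3 and 370.4 CPM at 21 dpi. Ctrl at 7 dpi was highest and clear of the other 5, and the counting intervals of Ctrl and Tgfbr2-cKO at 21 dpi overlapped.

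Serpina3n, a secreted inhibitor of serine proteases, was highest in Ctrl on both days. It stood at 116, 59.4 and 48.3 CPM at 7 dpi and at 94.9, 66.9 and 75.4 CPM at 21 dpi. A2m, the broad protease inhibitor α2-macroglobulin, stood at 392, 229.5 and 223 CPM at 7 dpi and at 908, 816 and 527 CPM at 21 dpi. It was higher at 21 than at 7 dpi in each group, and lowest in Tgfbr2-cKO at 21 dpi. At 7 dpi the counting intervals of ADWA11 and Tgfbr2-cKO overlapped, and in male nuclei Tgfbr2-cKO was highest, at 359 CPM against 285 in Ctrl and 213 with ADWA11. Lcn2, a secreted protein that binds bacterial iron carriers and marks strongly reactive astrocytes, had at 7 dpi 1 UMI in Ctrl, 1 with ADWA11 and 19 in Tgfbr2-cKO, and at 21 dpi 1446, 205 and 291 UMIs. As levels these were 1.02, 0.508 and 9.37 CPM at 7 dpi and 265, 109 and 47.3 CPM at 21 dpi, so that every library of 21 dpi was above every library of 7 dpi.

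Aqp4, the water channel of astrocyte endfeet, stood at 744, 731 and 397 CPM at 7 dpi and at 857, 1031 and 618 CPM at 21 dpi. Both Tgfbr2-cKO libraries were below the other 4. Slc1a2, the glutamate transporter GLT-1 that clears the synapse, stood at 671, 546 and 6203 CPM at 7 dpi and at 1696, 1114 and 5204 CPM at 21 dpi. The pair of Tgfbr2-cKO libraries was far above the rest, with no overlap.

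**Figure D2:**
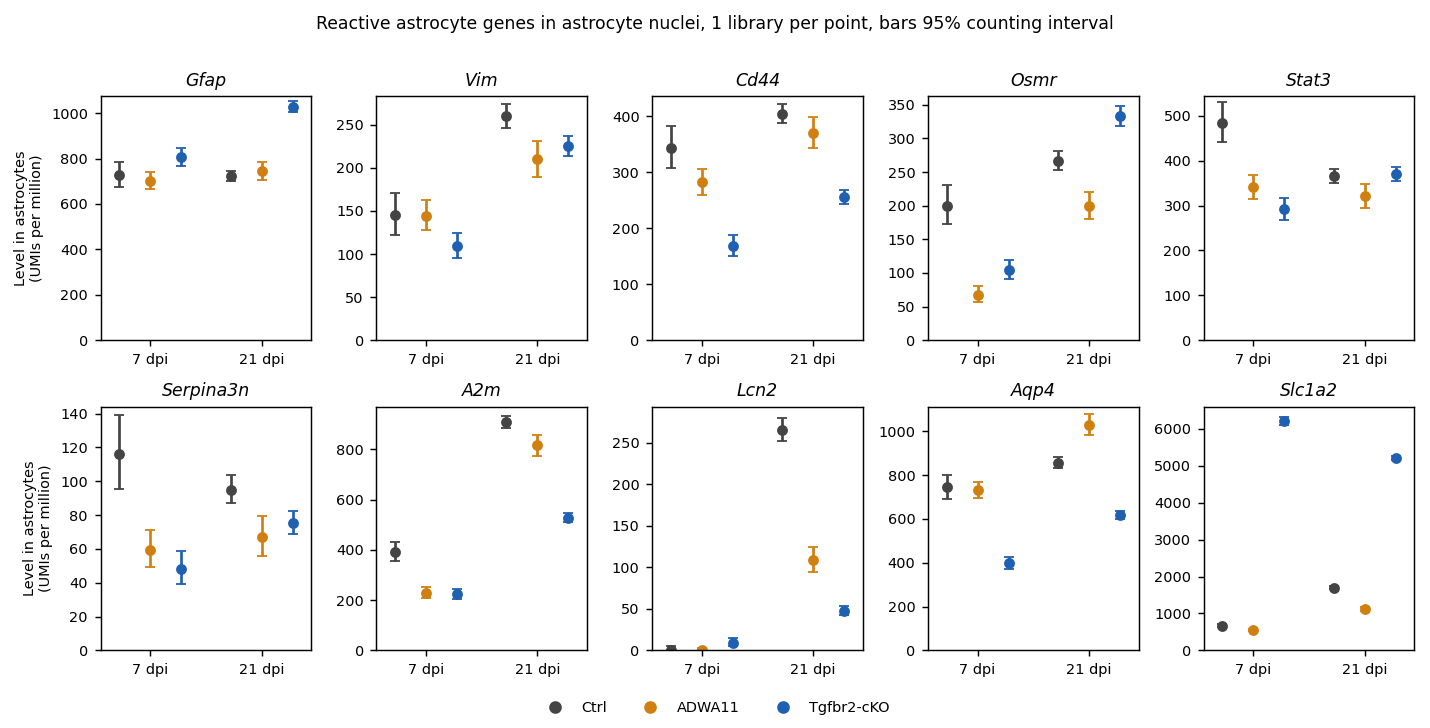
Level of each member in astrocytes of the 6 libraries, in CPM, with 95% Poisson intervals that cover counting error only. Lcn2 is near 0 in all 3 libraries of 7 dpi and highest in Ctrl at 21 dpi (265 CPM), while Slc1a2 is highest in the Tgfbr2-cKO libraries (6203 and 5204 CPM).

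The only error that could be given for these levels was that of counting, since no group had a second library to show how libraries vary. The widest 95% Poisson interval of a member reached to within 7.51% to 11.2% of its value for Aqp4, Gfap, Slc1a2, Stat3, A2m and Cd44. For Vim, Osmr and Serpina3n it was 17.8%, 18.5% and 21.9%. For Lcn2 it was 457%, in a library with 1 UMI. Female and male nuclei, told apart by Xist and Y-linked genes, stood for 1 mouse each and gave the second look at a library that the design allowed.

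From 7 to 21 dpi in Ctrl, 3 members were at least 2-fold higher (Lcn2, Slc1a2 and A2m) and none was at least 2-fold lower. Of the 10524 genes with at least 50 UMIs over the 2 libraries, 13.2% were at least 2-fold higher and 4.23% at least 2-fold lower. The median log2 ratio was 0.33 over the members and 0.11 over all genes. Lcn2 differed by 8.03 on the log2 scale (95% counting interval 5.55 to 13.33), by 6.63 in female nuclei and by at least 5.11 in male nuclei, which held no Lcn2 UMI at 7 dpi, and passed the count minimum only through 21 dpi. Slc1a2 differed by 1.34 (1.22 to 1.45), with 1.53 in female and 0.91 in male nuclei. A2m differed by 1.21 (1.06 to 1.37), with 1.05 and 1.62. Vim was higher by 0.84 (0.59 to 1.10) and Osmr by 0.42 (0.20 to 0.64). Stat3 was lower by a log2 ratio of −0.40 (−0.55 to −0.26). For Gfap (−0.01, −0.12 to 0.11) and Serpina3n (−0.29, −0.58 to 0.02) the interval included 0.

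Lists of related genes were read beside the members in the same pair of libraries. In every comparison a list gene could reach the minimum of 50 UMIs through 1 library alone, so the counts over lists are a description, and for list genes higher and lower mean at least 2-fold throughout. Of 7 other genes raised in reactive astrocytes of any kind, Cp (ceruloplasmin), with 193 UMIs at 7 dpi, was higher by 2.45. Timp1 (a metalloproteinase inhibitor), Steap4 (a metalloreductase) and Cxcl10 (a chemokine) reached the minimum only through 21 dpi. Timp1, with 2 UMIs at 7 dpi, gave 3.20 (1.31 to 6.27), and Steap4 and Cxcl10, with 0, were higher by at least 5.29 and 3.29. Of the A1-type genes, the list first drawn up in neuroinflammation, those at least 2-fold higher likewise had few UMIs at 7 dpi. C3, the central complement component, had 1 UMI at 7 dpi and 1444 at 21 dpi (8.03, 5.55 to 13.33), and Serping1, a complement inhibitor, had 6 and 502 (3.92). Srgn, Iigp1, H2-D1 and Gbp2 were the others, with 1 to 11 UMIs at 7 dpi. Of 8 tested A2-type genes, drawn up in ischaemia, 3 were higher (Tm4sf1, Ptx3 and Tgm1) and B3gnt5 was lower. Among 11 tested genes of the gp130 and JAK-STAT3 pathway, the receptor Il6ra (1.62) and the ligand Cntf (1.39) were higher, and the feedback inhibitor Socs3 was lower (−1.63). Il6st, which encodes gp130, gave 0.02. Of 12 astrocyte homeostatic genes, 6 were higher (Glul, Slc6a11, Aldoc, Sox9, Gjb6 and Mlc1) and Grm3 was lower. S100a6 was higher among 6 tested intermediate filament and scar-border genes, and the integrin chain Itgav was lower (−1.05) among 8 tested genes of the TGFβ axis. The largest differences of all genes with at least 200 UMIs and like signs in both sexes were those of Lcn2, C3, Chil1, Steap4 and Igkc on the high side and Grik1 (−5.49), Kcnj6, Cdh8, Nrg3 and Hs3st5 on the low side. Grik1, Kcnj6, Cdh8 and Hs3st5 were among the leading genes of astrocyte sub-cluster 3, which held 121 Ctrl nuclei at 7 dpi and 7 at 21 dpi. C3 and Igkc were among the leading genes of a fibroblast cluster (cluster 4), which held 464 Ctrl nuclei at 7 dpi and 2516 at 21 dpi. Summed fibroblast markers in these astrocytes were also higher at 21 dpi, at 936 against 486 CPM. The part of the sub-cluster, the fibroblast cluster or these markers in the differences was not tested.

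**Figure D3:**
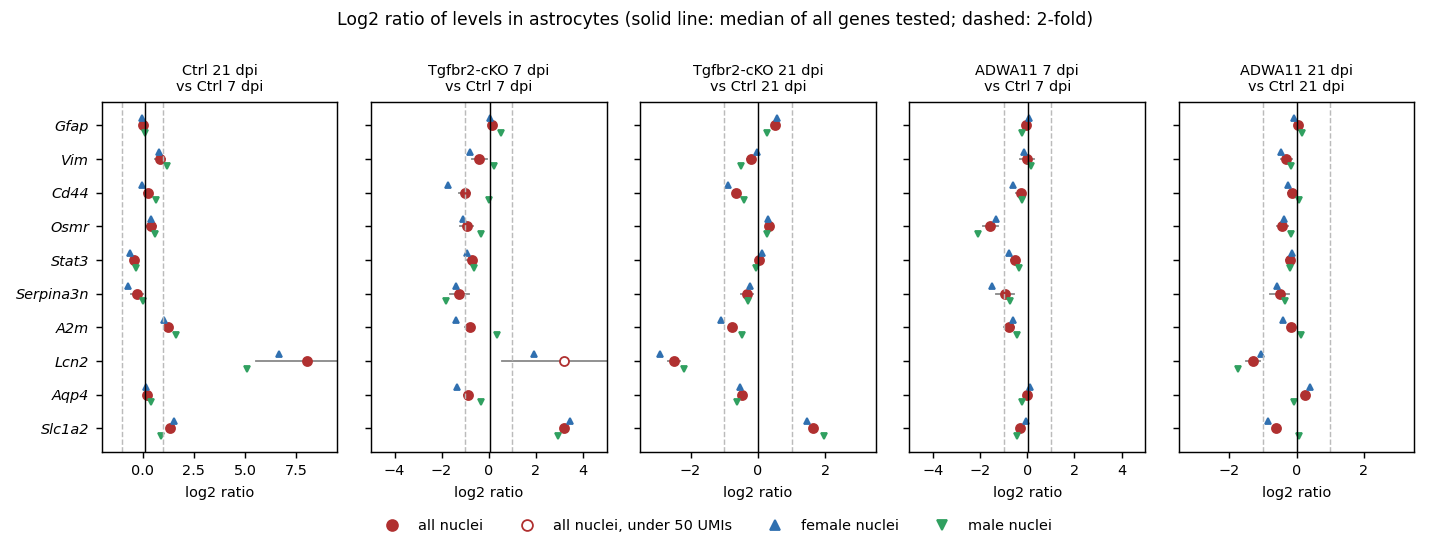
Log2 ratio of the level of each member in astrocytes for 5 pairs of libraries, with all nuclei in red (bars, 95% counting interval, cut at the panel's edge for Lcn2; open circles, under 50 UMIs), female nuclei in blue and male nuclei in green; the ranges of the x axes differ, Lcn2 has no ratio for ADWA11 at 7 dpi, and its male value for Ctrl is a lower bound. The solid line is the median of all genes tested and the dashed lines are 2-fold; Slc1a2 lies beyond the upper line in both Tgfbr2-cKO panels and Lcn2 beyond the lower line in both panels of 21 dpi against Ctrl.

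Deletion of Tgfbr2 under Col1a2 was compared with Ctrl on each day. At 7 dpi, 9 members had at least 50 UMIs, of which Slc1a2 was at least 2-fold higher and Cd44 and Serpina3n at least 2-fold lower. Of the 7712 genes tested, 9.34% were at least 2-fold higher and 6.89% at least 2-fold lower. Over all 10 members the median log2 ratio was −0.77, against 0.03 over all genes, and it was −1.01 in female nuclei but 0.02 in male nuclei, over the 9 members with a ratio there. Slc1a2 was higher by 3.21 (3.09 to 3.32), by 3.46 in female and 2.94 in male nuclei. Serpina3n gave −1.26 (−1.67 to −0.86), with −1.38 and −1.81, but 46.5% of its 114 Ctrl UMIs lay in 5 nuclei. It gave −0.97 without the 5 nuclei of each library that held most UMIs of the gene, and −0.53 without sub-cluster 2. Cd44 gave −1.03 (−1.25 to −0.80), but −1.72 in female and 0.02 in male nuclei, so that 1 mouse of each library carried it. Below the 2-fold line were Osmr (−0.94, with −1.10 in female and −0.33 in male nuclei) and Aqp4 (−0.90, with −1.37 and −0.34). So were A2m (−0.81, with −1.39 in female and 0.33 in male nuclei, and −0.20 without its 5 such nuclei), Stat3 (−0.73, with −0.92 and −0.63) and Vim (−0.41, with −0.78 and 0.23). Gfap was higher by 0.15 (0.02 to 0.28). Lcn2, with 19 UMIs against 1, gave 3.21 (0.55 to 8.58). In female nuclei these were 12 UMIs against 1 and in male nuclei 1 against 0, and 84.2% of the 19 UMIs lay in 5 nuclei.

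The lists gave their most one-sided count among homeostatic genes. Of 12 such genes 6 were at least 2-fold higher in Tgfbr2-cKO at 7 dpi and none lower: Gjb6 (the gap junction protein connexin 30, 4.05), Slc6a11 (a GABA transporter, 3.64), Aldoc (a glycolytic enzyme, 2.96), Glul (glutamine synthetase, 2.59), Slc1a4 and Sox9. In the gp130 and JAK-STAT3 list Cntfr (1.10) was at least 2-fold higher and Socs3 (−2.14) at least 2-fold lower. Of the reactive lists, S1pr3 was lower (1 of 3 tested), Ggta1 was lower and Iigp1 higher (3 tested), and Cd109 and Emp1 were lower (3 tested). The matrix protein Tnc (−1.20) and the cytolinker Plec (−1.14) were lower among 5 tested filament and border genes, and Smad7, a feedback target of TGFβ signalling, was lower (−1.25) among 7 of the TGFβ axis. Hif3a (7.43), Grin2c, Thbs4, Slc7a10 and Etnppl led all genes on the high side and Hs3st5, 9530059O14Rik, Hpgd, Piezo2 and Cntn6 on the low side. Grin2c and Slc7a10 were among the leading genes of sub-cluster 2, which held 165 nuclei of this library against 5 of Ctrl. Thbs4 was among those of sub-cluster 1, with 98 against 6. The part of these sub-clusters in the differences was not tested. Neurons made up 57.2% of this library against 1.64% of Ctrl, and summed neuron markers in astrocytes were 322 against 70.1 CPM; their part in the differences was not tested. How much tissue beside the lesion each dissection held cannot be told apart from the genotype.

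At 21 dpi the same deletion went with higher Slc1a2 and lower Lcn2. These were the members that differed at least 2-fold, 1 in each direction, where 3.47% of 12355 genes tested were at least 2-fold higher and 4.42% at least 2-fold lower. The median log2 ratio was −0.27 over the members and 0.00 over all genes. Slc1a2 was higher by 1.62 (1.58 to 1.65), with 1.46 in female and 1.96 in male nuclei. Lcn2 gave −2.49 (−2.68 to −2.31), with −2.91 and −2.20. A2m gave −0.78 (−0.85 to −0.72), Cd44 −0.66 (−0.76 to −0.57) and Aqp4 −0.47 (−0.53 to −0.41), each lower in both sexes. Gfap was higher by 0.51 (0.45 to 0.56), by 0.57 and 0.26 in female and male nuclei, and Osmr by 0.32 (0.22 to 0.42). Stat3 gave 0.02 (−0.07 to 0.10).

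Of the 7 other pan-reactive genes, 4 were at least 2-fold lower in Tgfbr2-cKO at 21 dpi: Cp (−1.46), Steap4 (−2.52), Timp1 (−2.76) and Cxcl10 (−3.52). The 10 tested A1-type genes split, with C3 (−2.06), Serping1 (−1.02) and Srgn (−1.10) lower and Fkbp5 (a glucocorticoid-induced chaperone, 1.99), Fbln5 and Iigp1 higher. Among 8 tested A2-type genes Ptx3, Tm4sf1 and Tgm1 were lower. Homeostatic genes again stood on the high side, with Slc6a11 (1.71), Aldoc (1.496), Glul (1.48) and Gjb6 (1.31) at least 2-fold higher of 12. None of 7 tested filament and border genes differed by 2-fold. Their log2 ratios lay between −0.90 and −0.25, with a median of −0.74, where 6114 of the 12355 genes tested lay below 0. Cntfr, the receptor chain for Cntf, was higher (1.21) of 11 tested pathway genes, and Smad7 was lower (−1.31) of 8. The leading genes on the low side were Col8a1 (−4.72), Col1a2, Mgp, Col1a1 and Col3a1, and on the high side Dpp10 (3.51), Kcnt1, the neuron marker Syt1, Thbs4 and Slc7a10. Col1a2, Col1a1 and Col3a1 were on the fibroblast marker list. Col8a1 was among the leading genes of fibroblast cluster 5, and Mgp and C3 among those of fibroblast cluster 4. These clusters held 3 and 165 nuclei of Tgfbr2-cKO at 21 dpi against 1699 and 2516 of Ctrl. Slc7a10 and Thbs4 were among the leading genes of astrocyte sub-clusters 2 and 1. These held 163 and 306 nuclei of Tgfbr2-cKO at 21 dpi against 50 and 222 of Ctrl. The part of fibroblast nuclei or of these sub-clusters in the differences was not tested. Summed fibroblast markers in these astrocytes were 144 against 936 CPM. Without the nuclei that held a UMI of the chief fibroblast or myeloid markers, the median over the members was −0.08.

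Blocking αvβ8 with ADWA11 was compared with the same Ctrl libraries, so the 2 sets of differences share their controls. At 7 dpi, of the 9 members with at least 50 UMIs, Osmr was at least 2-fold lower and none was at least 2-fold higher, where 1.98% of 7375 genes were at least 2-fold lower and 2.26% at least 2-fold higher. The median log2 ratio was −0.30 over the 9 members with a ratio and 0.02 over all genes. Osmr gave −1.57 (−1.90 to −1.24), with −1.35 in female and −2.09 in male nuclei. Serpina3n gave −0.96 (−1.35 to −0.58), A2m −0.77 (−0.97 to −0.57) and Stat3 −0.51 (−0.68 to −0.34), lower in both sexes. In Ctrl 5 nuclei held 46.5% of the Serpina3n and 52.6% of the A2m UMIs, against 30.8% and 33.6% with ADWA11, and without these 5 nuclei of each library the ratios were −0.63 and −0.33. For Gfap (−0.05), Vim (−0.01) and Aqp4 (−0.02) the intervals included 0. Lcn2 had 1 UMI in each library and was given no ratio.

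None of 8 tested pathway genes differed by 2-fold at 7 dpi, with log2 ratios from −0.89 (Cntfr) to 0.47 (Il6st). S1pr3, a sphingosine phosphate receptor, was lower (−1.31) of 3 pan-reactive genes, Tgm1 lower of 3 A2-type genes, and H2-D1, a class I histocompatibility gene, higher (1.06) of 3 A1-type genes. Grm3 and Slc1a4 were lower of 9 homeostatic genes, none of 6 filament and border genes differed by 2-fold, and Itgav, the αv chain, was lower (−1.005) of 7 genes of the TGFβ axis. Pakap (1.93), Kcnj3, Mt1, Flvcr1 and Reln led the high side and Fstl4 (−3.06), Grik1, Rarb, 9530059O14Rik and Cdh8 the low side.

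At 21 dpi, 1 member, Lcn2, was at least 2-fold lower with ADWA11 and none was at least 2-fold higher, where 2.3% of 11065 genes were at least 2-fold lower and 1.32% at least 2-fold higher. The median was −0.25 over the members and 0.03 over all genes. Lcn2 gave −1.28 (−1.503 to −1.07), with −1.06 in female and −1.74 in male nuclei. Slc1a2 gave −0.61 (−0.67 to −0.54), with −0.85 in female and 0.08 in male nuclei. Serpina3n gave −0.50 and Osmr −0.42, both lower in both sexes. Aqp4 was higher by 0.27 (0.19 to 0.34), and Gfap gave 0.04 (−0.05 to 0.13). Among the lists Timp1 was lower (−1.14) of 6 pan-reactive genes, Ptx3 and Tgm1 lower of 8 A2-type genes, and Glul (−1.12) and Grm3 lower of 12 homeostatic genes. H2-D1 was higher (1.38) of 10 A1-type genes and Lgals3, a galectin of phagocytes and reactive glia, higher (1.13) of 6 filament and border genes. None of 11 pathway genes and none of 9 genes of the TGFβ axis differed by 2-fold. Pparg (3.21), H2-Aa, Cd74, Adamts16 and Ftl1 led the high side and Cntn4 (−3.04), B830012L14Rik, Pcsk5, Nupr1 and Gm20754 the low side. Summed myeloid markers in these astrocytes were 276 with ADWA11 against 189 CPM in Ctrl, and endothelial markers 136 against 83.5 CPM, and their part in the differences was not tested. Without the nuclei holding fibroblast or myeloid UMIs the median over the members was −0.06.

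The passage from 7 to 21 dpi was also read within the treated groups. With ADWA11, 4 members were at least 2-fold higher at 21 dpi (Lcn2, A2m, Osmr and Slc1a2) and none lower, against 9.15% and 3.95% of 8702 genes. Lcn2, with 205 UMIs against 1, gave 7.74 (5.25 to 13.06), A2m 1.83, Osmr 1.56 and Slc1a2 1.03, the last with 0.75 in female and 1.41 in male nuclei. In Tgfbr2-cKO 4 were at least 2-fold higher (Lcn2, Osmr, A2m and Vim) and none lower, against 4.71% and 2.55% of 11259 genes. Lcn2 gave 2.33 (1.67 to 3.09), Osmr 1.67, A2m 1.24 and Vim 1.04. In male nuclei of this group A2m gave 0.81 and Vim 0.44, under 2-fold, against 1.34 and 1.54 in female nuclei, and in sub-cluster 2 they gave 0.16 and −0.07. Slc1a2 was lower here, at −0.25 (−0.28 to −0.22), and Stat3 was higher, at 0.35 (0.21 to 0.48). In female and male nuclei Slc1a2 gave −0.47 and −0.07 and Stat3 0.42 and 0.28. Within sub-cluster 1 Slc1a2 instead went from 4580 CPM at 7 dpi to 5650 at 21 dpi, and within sub-cluster 2 from 8589 to 8637. Stat3 went from 390 to 414 CPM and from 241 to 262 there, with overlapping intervals. Median log2 ratios were 0.52 over the members and 0.06 over all genes with ADWA11, and 0.64 and 0.04 in Tgfbr2-cKO.

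The share of astrocytes with an Lcn2 UMI followed the level. Thinned to 2000 UMIs, 25.1% of Ctrl astrocytes (exact binomial 95% interval 22.03 to 28.4), 11.4% with ADWA11 (8.04 to 15.4) and 5.39% in Tgfbr2-cKO (3.803 to 7.38) had one at 21 dpi. Unthinned shares were 39.4%, 27.4% and 12.8%, at median depths of 6382, 5627 and 8220 UMIs. In myeloid nuclei, at median depths of 4240, 5153 and 5191 UMIs, the thinned shares were 2.83%, 0.656% and 0.752% and the unthinned 6.35%, 1.63% and 1.89%. In fibroblasts, at median depths of 4891, 7221 and 7275 UMIs, the thinned shares were 3.35%, 2% and 2.51% and the unthinned 8.05%, 4.32% and 6.78%. The interval of the Tgfbr2-cKO fibroblasts (1.38 to 4.18) overlapped that of the Tgfbr2-cKO astrocytes. Nuclei under 2000 UMIs were left out of the thinned shares. In the same order of groups these were 47, 10 and 20 astrocytes and 412, 209 and 175 myeloid nuclei. Among fibroblasts they were 1862, 203 and 107. How much of the shares outside astrocytes was free RNA was not tested.

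Lcn2 was also counted in endothelial nuclei. Their level was 1.06, 3.21 and 5.10 CPM at 7 dpi and 83.6, 27.8 and 37.3 CPM at 21 dpi, with Ctrl highest at 21 dpi. The values of 7 dpi rest on few nuclei with an Lcn2 UMI, 2 of 269, 4 of 208 and 1 of 37. In Ctrl at 21 dpi 11.3% of them had an Lcn2 UMI when thinned and 10.5% a Gfap UMI, and 34.6% of their Lcn2 UMIs lay in 5 nuclei. In that library there was 1 Lcn2 UMI per Gfap UMI in endothelial nuclei (0.841 to 1.19), 0.655 in myeloid nuclei, 0.534 in fibroblasts and 0.366 in astrocytes (0.345 to 0.389). The ratio was 0.744 in T cells (0.443 to 1.23), 0.495 in oligodendrocyte precursors, 0.451 in cluster 11, 0.362 in oligodendrocytes and 0.314 in mural nuclei. In Tgfbr2-cKO at 21 dpi it was instead 0.862 in oligodendrocyte precursors, 0.796 in T cells and 0.358 in endothelial nuclei. Precursors there stood at 40.8 CPM of Lcn2, 86.3% of the astrocyte level, with 96.4% of their Lcn2 UMIs in 5 nuclei. Fibroblast Lcn2 was low throughout, at most 22.1 CPM.

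**Figure D4:**
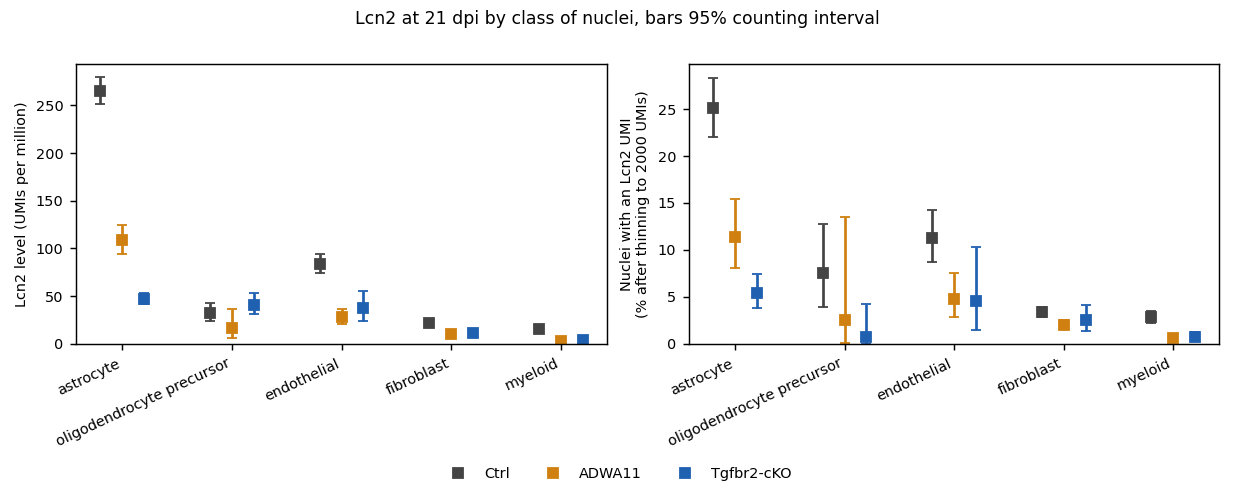
Lcn2 at 21 dpi in astrocytes, oligodendrocyte precursors, endothelial nuclei, fibroblasts and myeloid nuclei, as CPM (left) and as the percent of nuclei with a UMI after thinning to 2000 UMIs (right, nuclei under that depth left out), with 95% counting intervals. Ctrl astrocytes are highest in both (265 CPM and 25.1%), followed by ADWA11 astrocytes (109 CPM) and Ctrl endothelial nuclei (83.6 CPM).

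Osmr was also read outside astrocytes. In fibroblasts, the cells in which Tgfbr2-cKO mice express Cre, Osmr stood at 194, 257 and 319 CPM at 7 dpi and at 204, 247 and 430.0 CPM at 21 dpi. It was highest in Tgfbr2-cKO and lowest in Ctrl on both days, with log2 ratios of Tgfbr2-cKO to Ctrl of 0.72 and 1.08. The groups filled the clusters of the class differently. At 7 dpi Ctrl fibroblasts were mainly in clusters 5 and 8 (925 and 779 nuclei) and those of ADWA11 and Tgfbr2-cKO most often in cluster 8 (1176 of 2522 and 183 of 380), and at 21 dpi Ctrl was spread over clusters 4, 2 and 5 (2516, 1822 and 1699), while ADWA11 and Tgfbr2-cKO were mainly in cluster 2 (2199 and 378). Summed fibroblast markers in the class were 8524 CPM in Ctrl and 2396 CPM in Tgfbr2-cKO at 21 dpi. The part of either in the Osmr difference was not tested. In endothelial nuclei Osmr stood at 204, 93.2 and 127 CPM at 7 dpi and at 266, 227 and 167 CPM at 21 dpi. By level, Ctrl was highest on both days. The Tgfbr2-cKO value of 7 dpi rests on 17 nuclei with an Osmr UMI out of 37. When thinned, 27.6% of Ctrl endothelial nuclei of 7 dpi (22.05 to 33.7) had one. The thinned share was 10.5% with ADWA11 (6.55 to 15.8) and 19.4% in Tgfbr2-cKO (7.45 to 37.5). The Tgfbr2-cKO interval overlapped both others, so its place in the order of groups at 7 dpi was not resolved. Myeloid Cd44 stood at 267, 298 and 155 CPM at 7 dpi and at 257, 330.3 and 185 CPM at 21 dpi. As in astrocytes, it was lowest in both Tgfbr2-cKO libraries, but it was highest with ADWA11. The myeloid clusters were filled unequally too: cluster 1 held 4880 nuclei of ADWA11 against 506 of Ctrl and 306 of Tgfbr2-cKO at 21 dpi, and cluster 6 held 13 against 1061 and 1201 at 7 dpi.

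The astrocytes fell into 4 sub-clusters, and the groups filled different ones, so the pooled differences join levels within a sub-cluster with a change of sub-cluster. Most Ctrl and ADWA11 nuclei of 7 dpi were in sub-cluster 3 (90.3% and 85.0%) and most of 21 dpi in sub-cluster 0 (64.9% and 78.6%). Tgfbr2-cKO nuclei were mainly in sub-clusters 2 (50.6%) and 1 (30.1%) at 7 dpi and in 1 (44.5%), 0 (31.4%) and 2 (23.7%) at 21 dpi. The member genes were left out of the genes used for clustering. The sub-clusters were still drawn from these same nuclei, so member levels between them are a description. Ctrl at 21 dpi had at least 20 nuclei in sub-clusters 0, 1 and 2. Of these, sub-cluster 1 was highest in Lcn2 (628 CPM), Osmr (449) and Cd44 (637), and sub-cluster 2 was highest in Slc1a2 (5870.4 CPM) and lowest in Lcn2 (9.31) and Vim (115). Gfap stood at 591, 919 and 1003 CPM, and the intervals of sub-clusters 1 and 2 overlapped. In Tgfbr2-cKO of that day Gfap was instead higher in sub-cluster 1 (1449 CPM) than in sub-cluster 2 (623 CPM).

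Values within sub-clusters were chosen for reading after the data had been seen. In sub-cluster 3 at 7 dpi Slc1a2 was higher in Tgfbr2-cKO than in Ctrl by 1.25 and Serpina3n gave −1.39, while Cd44 gave −0.02 and Gfap −0.38. With ADWA11 Osmr gave −1.77 there and Serpina3n −1.01. At 21 dpi Lcn2 in Tgfbr2-cKO gave −2.45 in sub-cluster 0 and −2.79 in sub-cluster 1, and Slc1a2 gave 0.57 and 1.23. Osmr gave 0.68 in sub-cluster 0 and 0.01 in sub-cluster 1, and Gfap 0.27 and 0.66. In sub-cluster 2 Gfap went the other way, at −0.69, and Osmr gave −0.12, Slc1a2 0.56, Cd44 −1.82 and A2m −1.83, while Lcn2 had 2 UMIs against 3. Under ADWA11 Lcn2 gave −0.55 in sub-cluster 0 and −1.31 in sub-cluster 1.

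**Figure D5:**
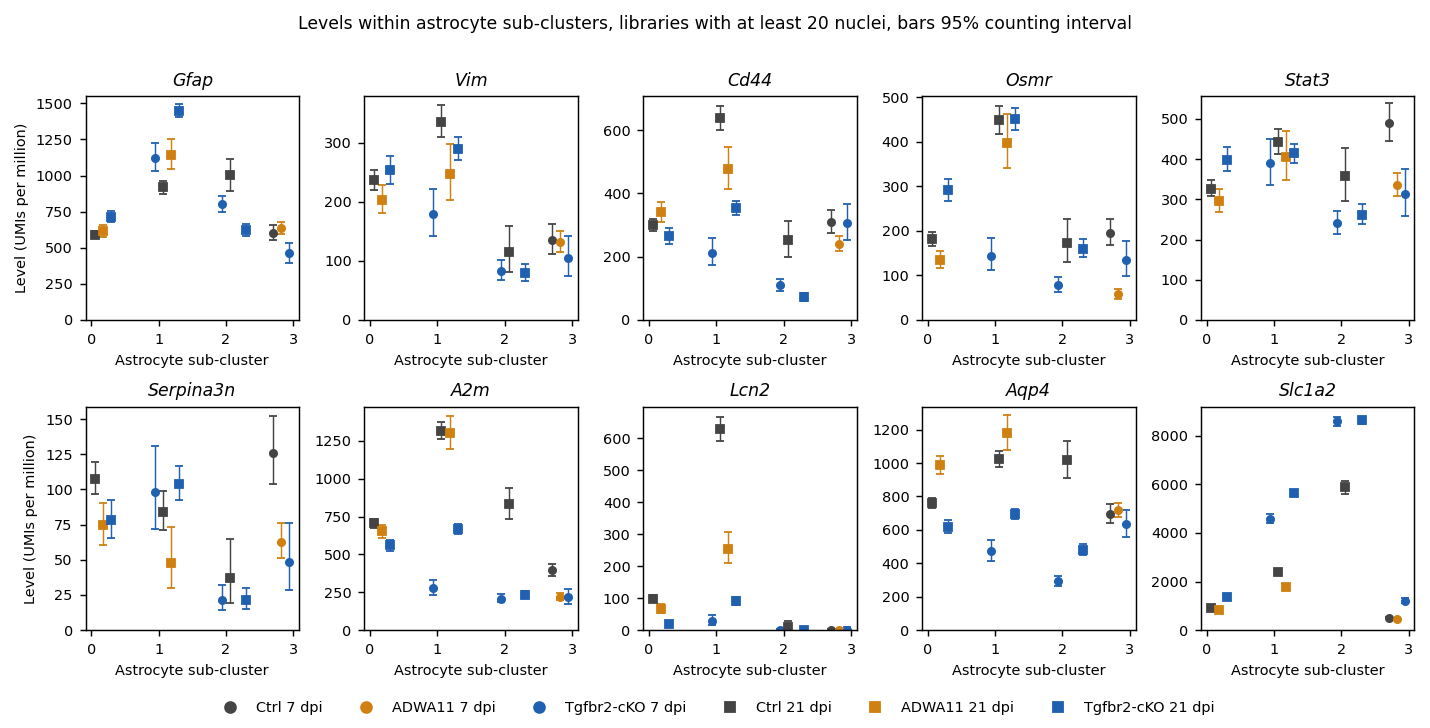
Level of each member in CPM within astrocyte sub-clusters 0 to 3, for libraries with at least 20 nuclei there, with circles for 7 dpi, squares for 21 dpi, a colour per group and 95% counting intervals. Lcn2 is highest in Ctrl nuclei of sub-cluster 1 at 21 dpi and lower in Tgfbr2-cKO in sub-clusters 0 and 1 of that day, and Slc1a2 is highest in sub-cluster 2.

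Over 58 sums of a class in a library, the genes most like Gfap by Pearson correlation of log levels, among 16641 compared, were Aqp4 (0.956), Mlc1 (0.925), A2m (0.888), Id4 (0.885) and Plcd4 (0.878). Of the other members, Serpina3n gave 0.795, Slc1a2 0.768, Lcn2 0.645 and Osmr 0.484, and Stat3 (0.170), Cd44 (0.101) and Vim (0.100) were near 0. The points share libraries, and most of the spread among them was between classes.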

How the data were processed

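Nuclei of dissected lesions were sorted on DAPI and captured with 10x Chromium 3′ v3.1 chemistry. The deposited counts are whole-number UMI counts per gene and barcode, not normalised, which the authors made against mm10 with Cell Ranger (7.1.0 per the labels, 7.2.0 per the file headers). Tags come from the 3′ end and from nuclear RNA, so levels were compared between libraries and classes and not between genes. No UMI was reassigned between overlapping or near-identical genes.

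As in the study's methods, the lowest and highest 2.5% of nuclei by UMIs and genes and the highest 2.5% by mitochondrial share were left out, here within each library, and SCTransform normalisation (Seurat 5.3.0 with sctransform 0.4.2, in R 4.3.3) was followed by clustering on 30 principal components at a resolution of 0.5 (0.3 for astrocytes). Doublets were called by simulation (6339 of 67360 barcodes), and clusters or sub-clusters with over 50% of called nuclei were left out. A class needed at least 3 raised markers, and 2 more than the next class. An astrocyte cluster also had to have Slc1a3, Rfx4 and Ntsr2 raised. An astrocyte sub-cluster was left out where markers of other classes outnumbered astrocyte markers among its leading genes. It was also left out where another class had at least 3 raised markers and more than astrocytes had. These rules were set after the clusters had been seen. Sub-clusters 0 and 3 were kept with no astrocyte marker raised over the other astrocyte sub-clusters. Raised in sub-cluster 0 were Sox10 and Lhfpl3 of the precursor list, Gad1 of the neuron list and Col1a2 and Dcn of the fibroblast list. In sub-cluster 3 Lhfpl3 of the precursor list and Syt1 and Gad2 of the neuron list were raised. No other class reached 3 raised markers in either, so both were kept. Cluster 11 (led by Trpm3, Slc6a20a and Ptgds) and cluster 15 (neutrophil and myeloid genes together) stayed unnamed. Classes were rebuilt from the counts, so they may differ from those of the study.

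For each class of a library the UMIs were added up and given as CPM. With 1 library per group no test, standard error or p-value was computed (Python 3.11.15, scipy 1.17.1). Intervals are exact (Poisson for levels, conditional binomial for log2 ratios, Clopper-Pearson for shares), at 95%, and cover counting error only. A gene counted as different where it had at least 50 UMIs over both libraries and differed at least 2-fold. A library at 0 was set to 3 UMIs to give a bound, and no ratio was given where both libraries had 3 or fewer. The script was tested on simulated data.

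The members and all lists were chosen with earlier results of these data known. Named genes were all members, the list genes past 2-fold, and the 5 highest and 5 lowest ratios among genes with at least 200 UMIs and the same sign in both sexes, and 1 list gene past 2-fold is not reported here. The alternatives, including TMM scaling with edgeR 4.0.16, are given in the closing section. Coordinates and promoters are on GRCm38, and promoters are from RefSeq.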

Additional observations from a re-analysis of the deposited data

Results flagged for a closer look

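Some members differed in opposite directions in a pair of comparisons of the same kind, with counting intervals that excluded 0 on both sides, and the difference between the comparisons was not tested, since each group had 1 library. Lcn2 in Tgfbr2-cKO against Ctrl had a log2 ratio of 3.21 at 7 dpi, on 19 UMIs against 1, and of −2.49 at 21 dpi. Osmr in the same comparison gave −0.94 at 7 dpi and 0.32 at 21 dpi. Stat3 at 21 against 7 dpi gave −0.40 in Ctrl and 0.35 in Tgfbr2-cKO. Within sub-clusters 1 and 2 of Tgfbr2-cKO Stat3 stood at 390 and 241 CPM at 7 dpi and at 414 and 262 CPM at 21 dpi. The counting intervals of the 2 days overlapped in each. Slc1a2 at 21 against 7 dpi gave 1.34 in Ctrl and 1.03 with ADWA11, but −0.25 in Tgfbr2-cKO, whose level at 7 dpi was the highest of all 6 libraries. In male nuclei of Tgfbr2-cKO Slc1a2 gave −0.07. Within sub-clusters 1 and 2 of Tgfbr2-cKO it was not lower, at 4580 and 8589 CPM at 7 dpi and 5650 and 8637 CPM at 21 dpi.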

How the results depend on the processing

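No paired analysis was possible because each group had 1 library, with no replicate number, and the values by sex (1 mouse each) share those libraries. For the same reason no library could be left out, every interval covers counting error only, and what separates a pair of libraries cannot be told apart from treatment, genotype or time. The 134 astrocytes of Ctrl at 7 dpi limit 3 of the 7 comparisons, and Lcn2 at 7 dpi had too few UMIs for a difference under several-fold to be seen. Of the 19 member differences of at least 2-fold (Lcn2 on 19 UMIs included), all kept their direction and 17 stayed at least 2-fold under TMM scaling, 18 under log-normalised clustering, 18 without nuclei called as doublets, 18 as a mean per nucleus, 19 under a percentile filter over all libraries, 16 without sub-cluster 2 and 16 of 18 without the 5 nuclei of each library with most UMIs of the gene. In female nuclei alone 18 of 19 stayed at least 2-fold, without Slc1a2 with ADWA11 at 21 against 7 dpi (0.75). In male nuclei alone 14 of 18 did, without Cd44 in Tgfbr2-cKO against Ctrl at 7 dpi (0.024, the other direction), Slc1a2 in Ctrl at 21 against 7 dpi (0.91), and A2m (0.81) and Vim (0.44) in Tgfbr2-cKO at 21 against 7 dpi. Sub-cluster alternatives were chosen after the data had been seen. In sub-cluster 2 alone Vim in Tgfbr2-cKO at 21 against 7 dpi was at −0.068, against 1.04 in all nuclei, and A2m at 0.16, against 1.24. Sub-clusters with under 20 nuclei in either library were not run, nor was the removal of nuclei holding fibroblast or myeloid UMIs in the 3 comparisons with Ctrl at 7 dpi.

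The median log2 ratio over the members with a ratio moved as follows, and the cause was not tested. For Ctrl at 21 against 7 dpi (0.33) it was 0.62 in male nuclei and 0.57 without the 5 nuclei with most UMIs of each gene. For Tgfbr2-cKO against Ctrl at 7 dpi (−0.77) it was −1.01 in female nuclei, 0.024 in male nuclei, −0.38 in sub-cluster 3 and −0.44 without sub-cluster 2. At 21 dpi (−0.27) it was −0.077 without nuclei holding fibroblast or myeloid UMIs, −0.040 in sub-cluster 0, −0.69 in sub-cluster 2 and −0.016 without sub-cluster 2. For ADWA11 against Ctrl it was −0.60 in female nuclei at 7 dpi (−0.30 in all), and −0.055 without nuclei holding fibroblast or myeloid UMIs at 21 dpi (−0.25). For ADWA11 at 21 against 7 dpi (0.52) it was 0.89 in male nuclei and 1.21 without those nuclei. For Tgfbr2-cKO at 21 against 7 dpi (0.64) it was 0.89 in female and 0.36 in male nuclei, 0.0080 in sub-cluster 2 and 0.46 without it.

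Counts of all genes at least 2-fold higher and lower followed the minimum, which sets how many genes were tested. With at least 200 UMIs in place of 50 they were 471 and 219 in place of 1389 and 445 (Ctrl, 21 against 7 dpi), 254 and 248 in place of 720 and 531 (Tgfbr2-cKO, 7 dpi), 173 and 222 in place of 429 and 546 (Tgfbr2-cKO, 21 dpi), 28 and 42 in place of 167 and 146 (ADWA11, 7 dpi), 27 and 82 in place of 146 and 255 (ADWA11, 21 dpi), 215 and 149 in place of 796 and 344 (ADWA11, 21 against 7 dpi) and 194 and 84 in place of 530 and 287 (Tgfbr2-cKO, 21 against 7 dpi). With at least 1 UMI they were, in the same order, 2319 and 2315, 2209 and 1408, 1457 and 1550, 1129 and 1038, 1139 and 994, 2724 and 1091, and 1338 and 1450.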
